A study of Mus musculus with 6 samples.

Results

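The genes described here are the zinc finger genes Zfp900 to Zfp999, taken as every row of the deposited tables whose symbol is Zfp9 followed by 2 further digits. There were 32 such rows among 46072 genes, and all 32 matched the GENCODE vM21 annotation of the GRCm38 mouse genome by Ensembl identifier. They were measured in mouse embryos at the 4-cell stage, in 3 libraries made after microinjection of siRNA against Son into zygotes and in 3 control libraries. Son encodes a nuclear speckle protein that acts in pre-mRNA splicing. The labels give no strain, no number of embryos per library and no description of the control injection, and they do not say whether libraries came from separate litters, so each p-value reflects no more than library-to-library spread, which may be technical. RNA was amplified with Smart-Seq2, a full-length cDNA method that does not mark the strand.

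Most genes of this kind encode KRAB zinc finger proteins. Such a protein carries a row of C2H2 zinc fingers, each a short loop held by a zinc ion, which together read a DNA sequence. Its KRAB domain recruits the corepressor Trim28, which brings the H3K9 methyltransferase Setdb1 and heterochromatin proteins, and the best known targets in early embryos and embryonic stem cells are transposable elements. The genes arose by repeated duplication, so many lie beside close relatives and share long stretches of sequence with them.

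The label was checked against the annotation. Of the 32 genes, 31 are annotated as protein coding and Zfp939 as a transcribed unprocessed pseudogene. In the longest coding sequence of each coding gene, translated from GENCODE vM21, 29 of 31 held a stretch of the KRAB type (an acidic residue followed by valine or leucine, then, at fixed spacing, valine, isoleucine or methionine, a phenylalanine or leucine with serine or threonine next to it, and a tryptophan). The exceptions were Zfp956, with 6 fingers, and Zfp957, with no finger of the searched spacing. Fingers were found in 29 of 31, with a median of 11 among those and a range of 6 to 18, the most being in Zfp945. Zfp935, whose longest coding sequence gives 150 residues, held a KRAB stretch and 0 fingers. The genes lay on 11 chromosomes, 10 of them on chromosome 17. Of the 32, 12 lay within 1 Mb of another gene of this set, and 28 lay within 1 Mb of some gene with a Zfp symbol.

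The abundant gene Zfp960 has a near copy, Zfp97, on the same chromosome, and a stretch of both shows how little separates their reads. The stretch lies in the coding sequence at chr17:17087682-17087741 for Zfp960 and chr17:17144897-17144956 for Zfp97, plus strand, GRCm38, and capitals mark the 3 bases that differ.
Zfp960: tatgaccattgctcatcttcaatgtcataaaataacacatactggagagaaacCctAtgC
Zfp97: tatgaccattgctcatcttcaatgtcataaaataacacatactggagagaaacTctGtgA
Over 1638 coding bases the genes differed at 30, an identity of 98.2%, and the longest identical run was 507 bases. Of all the 100-base stretches in Zfp960 transcripts, 68.3% also occur in Zfp97, so counts of these genes cannot be fully told apart.

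RefSeq promoter windows (GRCm38.p6) were given for 29 of the 32 genes, and the 250 bases before the RefSeq start were searched on both strands. Many of them held CCAATCA. The windows of 8 of these genes and of Zfp97 are shown because they also resemble each other in the bases before it; they were picked for that after reading all of them. The other genes with CCAATCA (Zfp939, Zfp941, Zfp951, Zfp952, Zfp961, Zfp963 and Zfp964) are not shown. Capitals mark CCAATCA, a form of the CCAAT box that was chosen after the sequences had been read.
Zfp932: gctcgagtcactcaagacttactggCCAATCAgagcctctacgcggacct
Zfp958: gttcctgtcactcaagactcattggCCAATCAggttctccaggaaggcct
Zfp936: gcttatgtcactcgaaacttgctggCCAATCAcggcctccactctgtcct
Zfp935: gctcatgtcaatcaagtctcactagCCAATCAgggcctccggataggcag
Zfp937: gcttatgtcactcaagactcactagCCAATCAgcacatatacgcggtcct
Zfp938: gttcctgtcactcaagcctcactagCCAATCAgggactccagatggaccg
Zfp959: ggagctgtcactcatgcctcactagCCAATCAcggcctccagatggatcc
Zfp931: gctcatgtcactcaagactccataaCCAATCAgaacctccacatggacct
Zfp97: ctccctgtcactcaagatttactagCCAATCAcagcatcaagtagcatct
They lie at chr5:109996430-109996479 (plus strand) for Zfp932, chr8:4613080-4613129 (plus) for Zfp958, chr7:43177502-43177551 (plus) for Zfp936, chr13:62466863-62466912 (minus) for Zfp935, chr2:150218015-150218064 (plus) for Zfp937, chr10:82241321-82241370 (minus) for Zfp938, chr17:55891987-55892036 (plus) for Zfp959, chr2:178078509-178078558 (minus) for Zfp931 and chr17:17121263-17121312 (plus) for Zfp97. The windows of Zfp935 and Zfp936 lie before a RefSeq start but within the longer GENCODE gene. CCAATCA was in 21 of 35 windows of the genes (60%), which belonged to 15 of the 29, and in 7.23% of 32851 windows of all genes. By gene, it was in 39 of 250 other numbered Zfp genes (15.6%). The shorter CCAAT, which includes it, was in 71.43% of the genes' windows and 33.85% of all windows. The GC box GGGCGG was in 28.57% and 32.74%, and the ETS letters CCGGAAGT were in 8.57% and 2.88%. The TATA letters TATAAA, the NRF1 motif and the YY1 letters AAGATGGCG were in 0 of the 35 windows and in 12.37%, 0.78% and 0.61% of all windows. A match describes the sequence and is not evidence that a factor bound there.

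Son itself was lower in each siRNA library, with 41, 28 and 25.1 CPM (counts scaled to a common library size with edgeR's TMM factors) in siRNA libraries 1 to 3, against 249, 322 and 332 CPM in controls 1 to 3. Library totals ranged from 104634855 to 118865650 units, where a unit is a deposited estimated count. Reads amplified without molecular identifiers are not independent molecules, so the floor below covers counting error only. A floor of 12 units, equal to 3 read pairs if 4 units are 1 pair, corresponded to 0.0906 to 0.125 CPM. All 12 markers of the 4-cell embryo were above that floor in at least 1 library. Their summed level was 3234 to 3587 CPM in siRNA libraries and 4298 to 8039 CPM in controls. Most of that difference was Obox6 alone, with means of 2089 CPM after siRNA and 5455 CPM in controls, while Oosp1 averaged 100.2 CPM after siRNA and 24.4 CPM in controls. The markers did not move together. Gdf9, Oosp1 and Zp3 were higher after siRNA and Nr5a2, Obox6, Pou5f1 and Tead4 were lower, each with groups that did not overlap. Groups overlapped for Dppa3, Klf17, Nlrp5, Padi6 and Zfp42. The cause of this split was not tested. Of the 10 cumulus cell markers, 5 (Amh, Cyp11a1, Foxl2, Fshr and Inhba) were at or below the floor in every library, and the summed level of the 10 was 20.6 to 27.9 CPM in siRNA libraries and 7.65 to 18.2 CPM in controls. Nearly all of that sum was Amhr2, with means of 23.8 CPM after siRNA and 11.8 CPM in controls. Blood markers summed to 10.1 to 11.5 CPM in siRNA libraries and 6.5 to 13.8 CPM in controls, with 4 of 8 at or below the floor everywhere, and sperm markers reached at most 1.14 CPM in both groups, with 4 of 8 at or below it. Their part in the results below was not tested. In these bulk libraries a smaller number of cells expressing a gene and less RNA per cell cannot be told apart.

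The genes spanned a wide range of levels. Scaled by exonic length, the highest mean level per kb was that of Zfp960, at 55.9 CPM per kb in siRNA libraries and 226 CPM per kb in controls. Zfp936 followed with 49.8 and 83.8 CPM per kb in the same order of groups, then Zfp958 with 50 and 69.2, Zfp961 with 31.9 and 52.1, Zfp935 with 18.5 and 44.1, and Zfp947 with 9.34 and 47.2 CPM per kb. In controls the ranges per kb of each pair of neighbours from Zfp936 to Zfp947 in this order overlapped, while Zfp960 lay above all of them. At the other end, Zfp964 had 0, 3 and 0 units in siRNA libraries and 8, 0 and 15 units in controls, and it alone did not pass the filter on low counts. Zfp931 and Zfp940 passed it with under 1 CPM in every library.

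The summed scaled level of these genes was lower after Son siRNA, and Zfp960 had the largest difference in mean CPM. Zfp936, which did not pass the test below, had means of 163 CPM after siRNA and 274 CPM in controls. In the same order of groups, the means were 26.8 and 136 CPM for Zfp947 and 28.1 and 81.0 CPM for Zfp932. Summed over all 32 rows, the level was 960, 1087 and 911 CPM in siRNA libraries 1 to 3, against 2370, 1440 and 2119 CPM in controls 1 to 3. The groups did not overlap, and the means were 986 ± 91.0 CPM after siRNA and 1977 ± 481 CPM in controls (SD, n = 3 each), a ratio of 0.499. Zfp960 carried much of this sum. Without it the ratio was 0.609, and without Zfp960, Zfp947 and Zfp932 it was 0.676, where the siRNA libraries had 736 to 847 CPM and the controls 777 to 1449 CPM and the groups overlapped. With total-count scaling, under which the all-gene median of log2 differences was 0.31 and not 0.02, the ratio over all 32 rows was 0.622.

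Of 31 genes tested, 3 fell and 0 rose (edgeR's quasi-likelihood test, adjusted over all 17788 tested genes to a threshold of 0.05). Over those 17788 genes, 0.899% were called lower and 0.0899% higher. At an unadjusted p under 0.05, 8 of the 31 were lower and 0 higher, against 8.86% and 5.88% of all genes. DESeq2's Wald test called 5 lower and 0 higher, against 4.74% and 2.89% of all genes. With limma-voom, group variances included, a fit added after seeing the data, the same 3 genes as with edgeR were called, against 1.86% lower and 0.242% higher of all genes. Fold changes were below 0 for 22 of the 31 and above 0 for 9. The median log2 fold change was -0.47, beside 0.02 over all tested genes, where 48.7% were below 0. The siRNA and control groups were fully apart for 8 genes that were lower and 3 that were higher after siRNA, against 11.6% and 12.1% of all tested genes.

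**Figure D1:**
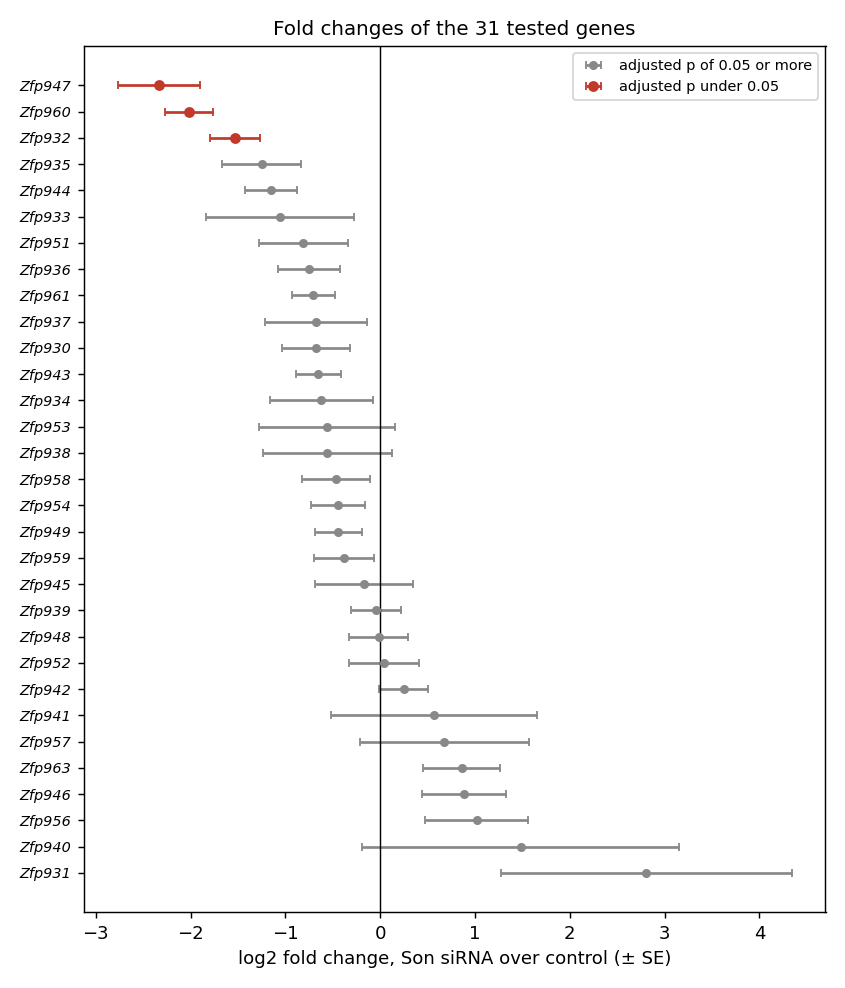
Log2 fold change of Son siRNA over control for the 31 tested genes (points, with SE as bars), from the lowest at the top to the highest at the bottom. Red points mark Zfp947, Zfp960 and Zfp932, the genes with an edgeR adjusted p under 0.05, and 22 of the 31 points lie below 0.

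Zfp960 (ENSMUSG00000096696, chromosome 17 from 17064113 to 17089628, plus strand) encodes a KRAB protein with 13 fingers. It had 146, 185 and 116 CPM in siRNA libraries 1 to 3 and 616, 470 and 723 CPM in controls 1 to 3. Every siRNA library was below every control, and the means were 149 ± 34.5 CPM after siRNA and 603 ± 127 CPM in controls (SD, n = 3 each). The log2 difference was -2.02 with an SE of 0.257, and edgeR gave an adjusted p of 0.0153. Its near copy Zfp97, which is outside the Zfp900 to Zfp999 numbers, had 86.5, 110 and 75.4 CPM in siRNA libraries and 235, 223 and 356 CPM in controls. Zfp97 also fell, by -1.58 in log2 with an SE of 0.262 (edgeR adjusted p = 0.0378). Summed, so that reads shared between them need not be assigned, Zfp960 and Zfp97 had 240 ± 52.0 CPM after siRNA and 874 ± 194 CPM in controls (SD, n = 3 each), a ratio of 0.274. Without siRNA library 1, 2 or 3, the log2 difference of Zfp960 was -2.0, -2.21 or -1.86, and its call was lost (edgeR adjusted p = 0.196, 0.0709 or 0.149).

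Zfp947 (ENSMUSG00000063383, chromosome 17 from 22144359 to 22166190, minus strand) encodes a KRAB protein with 9 fingers and had the lowest fold change of the set. It had 24.1, 22.0 and 34.4 CPM in siRNA libraries 1 to 3, against 214, 131 and 61.8 CPM in controls 1 to 3. The groups did not overlap, but the controls differed among themselves far more than the siRNA libraries did. The means were 26.8 ± 6.65 CPM after siRNA and 136 ± 76.3 CPM in controls (SD, n = 3 each). The log2 difference was -2.34 with an SE of 0.432 (edgeR adjusted p = 0.047). Only 2.6% of its 100-base stretches occur in other genes, so its count rests mainly on sequence of its own. Its call was lost without any library but control 3: edgeR's adjusted p was 0.296, 0.202 and 0.239 without siRNA library 1, 2 and 3, and 0.0939 and 0.0575 without control 1 and 2. With total-count scaling, upper-quartile scaling or no filter on low counts it was 0.103, 0.052 or 0.0584. The 250 bases before its RefSeq start, at chr17:22165978-22166227 on the minus strand, are given because Zfp947 had the lowest log2 fold change with all libraries; without control 1 its value was -1.84 and that of Zfp960 -2.0. GENCODE vM21 starts the gene farther upstream, so most of these bases lie within the GENCODE gene. Capitals mark a CCAAT box read on the opposite strand (ATTGG) that overlaps the GC box GGGCGG.
Zfp947: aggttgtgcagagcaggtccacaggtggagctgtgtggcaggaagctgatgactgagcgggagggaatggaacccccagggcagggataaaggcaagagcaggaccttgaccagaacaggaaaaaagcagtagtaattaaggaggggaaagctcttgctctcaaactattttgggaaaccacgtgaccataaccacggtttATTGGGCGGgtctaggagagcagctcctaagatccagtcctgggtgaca

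Zfp932 (ENSMUSG00000066613, chromosome 5 from 109996521 to 110010411, plus strand) encodes a KRAB protein with 15 fingers that, with its relative Gm15446, is known to bind endogenous retroviruses in mouse embryonic stem cells. It had 27.6, 33.3 and 23.4 CPM in siRNA libraries 1 to 3, against 90.8, 62.6 and 89.6 CPM in controls 1 to 3. The siRNA libraries all lay below the lowest control, which was control 2. The means were 28.1 ± 4.95 CPM after siRNA and 81.0 ± 15.9 CPM in controls (SD, n = 3 each), a log2 difference of -1.53 with an SE of 0.264 (edgeR adjusted p = 0.0402). Gm15446 shares 17.7% of Zfp932's 100-base stretches. It had 4.92 ± 1.08 CPM after siRNA and 15.8 ± 5.36 CPM in controls (SD, n = 3 each), with a log2 fold change of -1.68 that did not pass (edgeR adjusted p = 0.0785). Among the fits leaving out 1 library, edgeR called Zfp932 only without control 2 (adjusted p = 0.0309): without siRNA library 1, 2 or 3 edgeR's adjusted p was 0.287, 0.127 or 0.289, and without control 1 or 3 it was 0.0905 or 0.0741. With total-count scaling or no filter it was 0.0876 or 0.0504. DESeq2, without each library in turn, called Zfp960, Zfp947 and Zfp932 lower in all 6 fits.

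**Figure D2:**
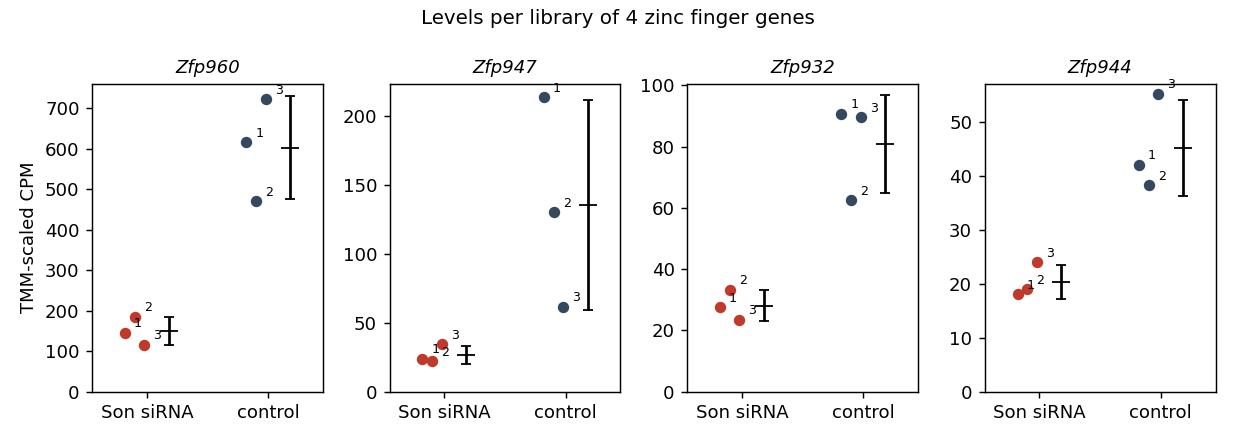
TMM-scaled CPM in each library (points, numbered by replicate) for Zfp960, Zfp947, Zfp932 and Zfp944, with Son siRNA at the left and control at the right of each panel, and bars showing mean ± SD (n = 3 each). Every siRNA point is below every control point in all 4 panels. Relative to their mean, the controls are widest for Zfp947, at 61.8 to 214 CPM.

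The chromosome 17 cluster from 21567008 to 22867134 holds 7 of the genes. Zfp947 was called lower, and the other 6, which did not pass, had log2 fold changes of -1.15 to 0.88. Zfp944 had 18.0, 19.0 and 24.0 CPM in siRNA libraries and 42.1, 38.2 and 55.2 CPM in controls, with groups that did not overlap. Its log2 fold change was -1.15 (SE 0.271) and did not pass (edgeR adjusted p = 0.0903), while DESeq2 called it lower (adjusted p = 0.00138). Zfp942 and Zfp943 start 88 bases apart on opposite strands. Zfp942 had 59.5, 56.8 and 60.8 CPM in siRNA libraries and 58.3, 35 and 55.7 CPM in controls (0.25 in log2, edgeR adjusted p = 0.737), whereas Zfp943, which was chosen after its values were seen, had 26.9, 31.3 and 26.9 CPM and 48.5, 41.4 and 44.0 CPM in the same order of groups (log2 -0.65, edgeR adjusted p = 0.239). The controls lay above the siRNA libraries for Zfp943 and overlapped them for Zfp942, and the difference between the 2 fold changes was not tested. Zfp946 had 10.2, 4.00 and 6.94 CPM in siRNA libraries and 3.76, 2.80 and 4.92 CPM in controls (0.88 in log2, edgeR adjusted p = 0.403). Zfp948 had log2 -0.02 and Zfp945, also chosen after its values were seen, log2 -0.17. Over the 7 genes the median was -0.17.

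**Figure D3:**
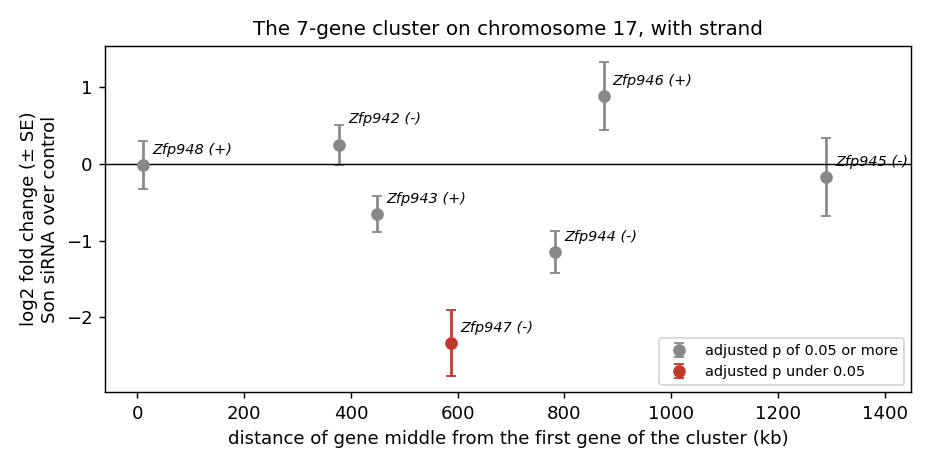
Log2 fold change of Son siRNA over control (points, with SE as bars) for the 7 genes of the chromosome 17 cluster, by distance of each gene's middle from the start of the first gene in kb, with strand in brackets. Zfp947 (red) has an edgeR adjusted p under 0.05, and Zfp943, Zfp944 and Zfp946 have -0.65, -1.15 and 0.88.

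Several abundant genes of the set were lower after siRNA without passing the test. Zfp961, a KRAB gene on chromosome 8, had 148, 125 and 142 CPM in siRNA libraries and 271, 172 and 235 CPM in controls, with groups that did not overlap (-0.71 in log2, edgeR adjusted p = 0.19). Zfp936 had 166, 178 and 146 CPM in siRNA libraries and 396, 146 and 281 CPM in controls (-0.75 in log2, edgeR adjusted p = 0.338), where control 2 was as low as the siRNA libraries. Zfp958 had 85.7, 168 and 101 CPM in siRNA libraries and 214, 92.4 and 185 CPM in controls (-0.47 in log2, edgeR adjusted p = 0.617). Zfp935 had 34.2, 37.5 and 19.0 CPM in siRNA libraries and 104.6, 36.5 and 74.8 CPM in controls (-1.25 in log2, edgeR adjusted p = 0.199). However, all of its exonic bases lie within other annotated genes, mainly Gm49359, and its count is uncertain. No counted gene carried the symbol Gm49359, and whether that gene was counted under another symbol was not examined. Zfp951 had 16.7, 16.9 and 17.6 CPM in siRNA libraries and 47.2, 10.7 and 32 CPM in controls (-0.81 in log2, edgeR adjusted p = 0.48). The siRNA libraries of Zfp951 were nearly equal while its controls spanned more than the whole siRNA range on both sides. Zfp933 varied widely within the siRNA group, with 5.30, 7.85 and 0.514 CPM there and 14.2, 7.0 and 7.24 CPM in controls (-1.06 in log2, edgeR adjusted p = 0.596). Zfp937 had a log2 fold change of -0.68 at 1.73 ± 0.479 CPM after siRNA and 2.77 ± 1.25 CPM in controls (SD, n = 3 each).

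The genes with higher values after siRNA were nearly all of low level. Zfp963 had 8.84, 7.51 and 8.59 CPM in siRNA libraries and 2.59, 6.60 and 4.56 CPM in controls, with no overlap (log2 0.86, edgeR adjusted p = 0.375). Its exons overlap those of Gm20422 over 40.8% of their bases, and Gm20422 itself had at most 1 unit in any library. Zfp956 had 3.57, 2.33 and 3.98 CPM in siRNA libraries and 0.728, 2.31 and 1.85 CPM in controls (1.02 in log2, edgeR adjusted p = 0.438). Zfp931 had 31, 47 and 69 units in siRNA libraries, against 12, 0 and 4 units in controls. The groups of Zfp931 did not overlap, but the controls were at or below the floor, and the fitted log2 fold change of 2.81 had an SE of 1.53 (edgeR adjusted p = 0.45). Zfp957, Zfp940 and Zfp941 had fitted log2 fold changes of 0.68, 1.48 and 0.57 with SEs of 0.886, 1.67 and 1.09, and their groups overlapped. Zfp952 lay at 7.89 ± 2.38 CPM after siRNA and 7.68 ± 1.91 CPM in controls (SD, n = 3 each). The other 8 tested genes not described singly (Zfp930, Zfp934, Zfp938, Zfp939, Zfp949, Zfp953, Zfp954 and Zfp959) had log2 fold changes of -0.68 to -0.05 and did not pass.

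Control 2 differed from controls 1 and 3 across much of the set. It was the lowest of the 3 controls for 22 of the 31 tested genes (71.0%), beside 31.2% of all tested genes. With total-count scaling these values were 48.4% and 20.8%. The median of centred log2 CPM over the 31 genes was -0.20, -0.06 and -0.30 in siRNA libraries 1 to 3, and 0.49, -0.08 and 0.43 in controls 1 to 3. Control 2 thus lay beside siRNA library 2, while controls 1 and 3 lay apart from all others. Without control 2 the median log2 fold change of the 31 genes was -0.70, and without control 1 or 3 it was -0.32 or -0.33. In the fit without control 2 edgeR called Zfp960 and Zfp932 lower and 0 genes higher, against 1.22% lower and 0.443% higher of all genes. DESeq2 in that fit called 10 genes lower and 2 higher (Zfp957 and Zfp963), against 6.9% and 7.25% of all genes. For the 21 genes at 5 CPM or more in a group, spread was taken as the SD of log2(CPM + 0.1) values. Its median was 0.253 between siRNA libraries and 0.40 between controls, and 15 of the 21 varied more between controls. Controls were also the wider group over 6079 genes of the series. There the log2 spread had a median of 0.424 between controls and 0.216 between siRNA libraries. Wider controls were thus not particular to the Zfp900 to Zfp999 genes.

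**Figure D4:**
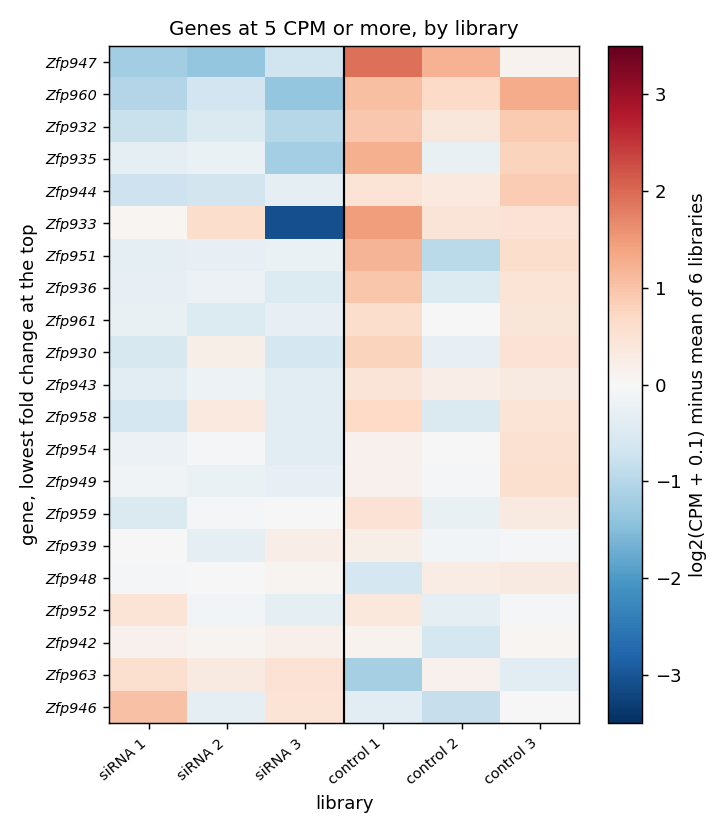
Log2(CPM + 0.1) of the 21 tested genes at 5 CPM or more in a group, with the mean of the 6 libraries subtracted (colour), by library (columns, Son siRNA at the left, control at the right) and gene (rows, lowest fold change at the top). Control 2 is paler or bluer than controls 1 and 3 for most rows, and siRNA library 3 stands low for Zfp933, at 0.514 CPM.

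Fold changes of genes with and without the promoter letters are given side by side, without a test. The 14 tested genes with CCAATCA had a median log2 fold change of -0.51, with 10 below 0 and Zfp932 called. The 14 tested genes with a promoter window but without CCAATCA had a median of -0.31, with 9 below 0 and Zfp947 called. Those shown above with similar bases before the letters are not independent points.

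Of the 3 called genes, 2 (Zfp932 and Zfp960) share much sequence with other genes. Over 10% of exonic bases or of 100-base stretches were shared with another gene in 5 of the 32 genes (Zfp932, Zfp935, Zfp937, Zfp960 and Zfp963). With those 5 left out of the list, the 26 remaining tested genes had a median log2 fold change of -0.45, 18 were below 0, and Zfp947 was the call that was left. The fit was the same, and Zfp932 and Zfp960 left the count by definition. Whether shared sequence affected their calls was not tested.

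The other numbered Zfp genes, 309 rows with symbols outside Zfp900 to Zfp999, are set beside them. Of 273 tested, edgeR called 2 lower (Zfp97 and Zfp820, 0.733%) and 0 higher, against 0.899% and 0.0899% of all genes. At an unadjusted p under 0.05 there were 28 lower and 18 higher, against 8.86% and 5.88% of all genes. DESeq2 called 17 lower and 7 higher, against 4.74% and 2.89% of all genes. Their median log2 fold change was 0.03, and 134 were below 0. Summed over the 309 rows, the level was 8490, 8768 and 8102 CPM in siRNA libraries 1 to 3. Controls 1 to 3 had 10415, 8953 and 11484 CPM. These groups did not overlap either, and the ratio of means was 0.822. The difference from the Zfp900 to Zfp999 genes was not tested.

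Cofactors through which KRAB proteins repress showed no call by edgeR. Of 30 genes, all tested, 0 were called lower and 0 higher, against 0.899% and 0.0899% of all genes. At an unadjusted p under 0.05, 7 were lower and 2 higher, against 8.86% and 5.88% of all genes. DESeq2 called 1 lower and 2 higher, against 4.74% and 2.89% of all genes. The siRNA and control groups were fully apart for 10 that were lower and 2 that were higher, against 11.6% and 12.1% of all tested genes. The median log2 fold change was -0.15, and 20 were below 0. Trim28, the corepressor itself, named for its role, had 125, 83.7 and 103 CPM in siRNA libraries and 76.8, 152 and 93.6 CPM in controls (log2 -0.05, SE 0.295), with overlapping groups. Setdb1, also named for its role, had 60.5 ± 14.1 CPM after siRNA and 84.8 ± 13.2 CPM in controls (SD, n = 3 each), a log2 difference of -0.49 (edgeR adjusted p = 0.437). The histone deacetylase gene Hdac1 had 50.9, 45.1 and 58.4 CPM in siRNA libraries and 102, 110 and 99.9 CPM in controls (-1.01 in log2, edgeR adjusted p = 0.07). Suv39h2, an H3K9 methyltransferase, had 39.9, 32 and 38.6 CPM in siRNA libraries and 15.2, 12.7 and 19.9 CPM in controls (1.21 in log2, edgeR adjusted p = 0.0901). The heterochromatin protein genes Cbx1 and Cbx5 had log2 fold changes of 1.23 and -0.64 (edgeR adjusted p = 0.166 and 0.253).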

How the data were processed

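The authors deposited 1 table per library, with a whole-number estimated count for each of 46072 genes and no normalization, per the file headers. HISAT2 2.0.5, StringTie 1.3.3b and the GRCm38 build were used, per the submitters' processing notes. Annotation release, read length and counting step: not given in the sources used here. Values of 1 to 40 units were multiples of 4 for 26.4% to 32.4% of genes, so that 4 units equal 1 read pair is an assumption.

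Counts were used as deposited. edgeR 4.0.16 in R 4.3.3 tested Son siRNA minus control (glmQLFit, glmQLFTest) after filterByExpr and TMM, with Benjamini-Hochberg adjustment over 17788 genes and a threshold of 0.05. The SE is the fold change divided by the root of the F statistic. DESeq2 1.42.0 on all genes and limma 3.58.1 (voom with a variance per group) were alternatives, beside other scalings, filters, counts divided by 4, a replicate block and leaving out each library. The fit was tested on simulated data.

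Genes named were those past the threshold, the 10 highest and 10 lowest fold changes, the 6 highest levels per kb and, of the cofactors, the 4 smallest p-values; others are said to be chosen afterwards or for their role. Members and lists were chosen with earlier results of these data known. Overlaps, coding sequences and shared stretches of 100 bases came from GENCODE vM21 (45223 of 46072 identifiers matched).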

Additional observations from a re-analysis of the deposited data

How the results depend on the processing

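The direction of the decrease was the same in every alternative run for Zfp960, Zfp947, Zfp932, Son and the median of the set, but the calls depended on single libraries. Instead of 3 genes lower, edgeR called 1 with total counts, 1 with no filter and 0 with the replicate block (6 at an unadjusted p under 0.05, and 0 over all genes). DESeq2 called 5, and 10 without control 2, when it also called 2 higher instead of 0. Leaving out each library gave 0 to 2 by edgeR; the 0 came without each siRNA library, where edgeR called 0 of all genes and 6, 7 and 5 genes of the set were lower at an unadjusted p under 0.05. Leaving genes that share over 10% of sequence out of the list left 1 call of the same fit, since Zfp960 and Zfp932 then drop out by definition. No alternative other than these 2 by DESeq2 called any gene of the set higher. The median log2 fold change of -0.47 was -0.15 with total counts, when the median of all genes was 0.31, and -0.32 to -0.70 without single libraries. The log2 ratio of the summed level, -1.0, was -0.69 with total counts and -0.85 to -1.19 without single libraries. Other numbered Zfp genes called lower, 2, were 0 with total counts, 0 with the replicate block, 17 by DESeq2 and 0 to 6 without single libraries. Those called higher, 0, were 1 with the filter of 50 units in 3 libraries, 1 with counts divided by 4, 7 by DESeq2 and 0 to 2 without single libraries. Cofactors called were 1 lower with counts divided by 4, and 1 lower and 2 higher by DESeq2. Son had -3.29 with the replicate block (edgeR adjusted p = 0.0617) and -3.50 to -3.12 without single libraries (0.013 to 0.136). Over the 31 tested genes, 19 were below 0 with total counts and 19 without control 3, instead of 22. Among the genes named by rule, signs turned for 3: Zfp948 (-0.02) was 0.27 with total counts, 0.015 with upper-quartile scaling, 0.040 with the replicate block, and -0.26 to 0.14 without single libraries; Zfp952 (0.04) was -0.22 to 0.25 without single libraries; and Zfp941 (0.57) was -0.21 with the replicate block. The cause was not tested. Same-numbered libraries had correlations of -0.27, -0.33 and 0.02 in their deviations from the group means. With so few libraries these values cannot decide whether same-numbered libraries were paired, and the labels state no pairing. DESeq2 without each library, limma-voom, leaving out mitochondrial genes and the changes in membership were added after seeing the data.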

Other observations

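A further 32 rows of the tables carry other symbols (mostly Gm names) but are named Zfp950 or Zfp965 to Zfp995 in GENCODE vM21 by Ensembl identifier. All 32 were tested. By edgeR 0 were called, against 0.899% lower and 0.0899% higher of all genes. At an unadjusted p under 0.05, 6 were lower and 0 higher, against 8.86% and 5.88% of all genes. DESeq2 called 1 lower and 0 higher, against 4.74% and 2.89% of all genes. Fold changes were below 0 for 30 of the 32, with a median of -0.64 in log2. The 15 rows on chromosome 4, between 145510759 and 147809788, were all below 0 with a median of -0.76. The 9 rows on chromosome 2 were all below 0 with a median of -0.60. Sequence shared with other genes was not measured for these 32 rows, so neighbouring rows may not be independent. Summed over the 32 rows the level was 795, 1018 and 726 CPM in siRNA libraries 1 to 3 and 1945, 734 and 1601 CPM in controls 1 to 3, so control 2 lay within the siRNA range. Control 2 was the lowest control for 28 of the 32, with TMM and with total-count scaling. Chosen after their values were seen, Gm13247 (Zfp981) had 37.0, 37.9 and 36.1 CPM in siRNA libraries and 131, 42.1 and 134 CPM in controls, and Gm13157 (Zfp984) had 56.8, 66.2 and 42.9 CPM in siRNA libraries and 153, 68.7 and 105.5 CPM in controls. Both had groups that did not overlap and log2 fold changes of -1.47 and -0.98 (edgeR adjusted p = 0.129 and 0.198). Control 2 was close to the siRNA libraries for both.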
